A study of Mus musculus with 12 samples.

Results

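The genes described here are the heavy chains of the major histocompatibility complex (MHC) class I molecules and their shared light chain, beta-2-microglobulin. They were taken by gene symbol, 10 of the 24062 genes in the count files: the classical heavy chains H2-K1, H2-D1 and H2-L, the non-classical heavy chains H2-Q4, H2-Q5, H2-Q6, H2-Q7, H2-T22 and H2-T23, and B2m. All 10 passed the filter on low counts in both tissues. The libraries are 12 poly(A) RNA-seq libraries of liver and gastrocnemius, a calf muscle, from 6 female C57BL/6N mice on chow. Of these mice, 3 were wild type (WT; animals 6, 8 and 9) and 3 were homozygous for the R135W missense allele of Mars2, which encodes the mitochondrial methionyl-tRNA synthetase (R135W; animals 5, 7 and 12). The 4 groups are liver WT, liver R135W, gastrocnemius WT and gastrocnemius R135W, with 3 libraries in each. WT animals were 9.0, 9.0 and 7.4 weeks old and R135W animals 9.0, 7.4 and 8.6 weeks. The labels give the same genotype for both tissues of an animal and name no other allele or agent.

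A class I heavy chain pairs with beta-2-microglobulin and a short peptide in the endoplasmic reticulum, and the complex is carried to the cell surface. The classical chains H2-K and H2-D show peptides from the cell's own proteins to CD8 T cells and also bind inhibitory receptors of natural killer cells. The non-classical chains have narrower roles: H2-T23 encodes Qa-1, which presents leader peptides of classical chains to the CD94/NKG2 receptors, and H2-Q7 and its neighbours encode Qa-2 molecules. Transcription of these genes is classically induced by interferons through an interferon-stimulated response element (ISRE), by NF-kappaB through an enhancer beside it, and by the transactivator NLRC5 at a proximal module. Hepatocytes and resting muscle fibres are both known for low class I levels beside immune and endothelial cells.

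The files place the 9 heavy chain genes within 2.05 Mb of chromosome 17 (mm10). H2-K1 lies at chr17:33996012-34000333 on the minus strand, H2-D1 at chr17:35263094-35267497 on the plus strand and H2-L inside it at chr17:35263123-35266730. H2-Q4 (chr17:35379617-35384674), H2-Q5 (chr17:35394099-35395630), H2-Q6 (chr17:35424877-35428361) and H2-Q7 (chr17:35439155-35443773) follow on the plus strand. H2-T23 (chr17:36029977-36032701) and H2-T22 (chr17:36038409-36042702) lie on the minus strand, and B2m lies elsewhere, at chr2:122147687-122153082 on the plus strand.

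Of the exon bases of H2-L, 99.62% also belong to H2-D1, and a fragment over both was counted for both. H2-L counts came to between 77.2% and 86.5% of the H2-D1 counts of the same library. H2-L is therefore no separate measurement here, and C57BL/6 mice, of the H-2b haplotype, are known to lack an L chain. H2-Q6 shares all of its exon bases with H2-Q8, and H2-Q7 99.02% with H2-Q9; the counts of each pair are identical, so a value for H2-Q6 or H2-Q7 stands for its pair. H2-T22 shares 93.23% of its exon bases with H2-T9, and their counts differ in 1 library. H2-T23, B2m, H2-K1, H2-Q4 and H2-Q5 share no exon base with another gene. Heavy chains are similar paralogs, so fragments from conserved exons were placed by the aligner's choice of primary alignment and levels of single heavy chains are uncertain to that extent.

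The upstream sequences of the heavy chains and of B2m differ in ways that can be read directly. RefSeq promoters (GRCm38.p6, the assembly called mm10 by UCSC) were matched for 8 of the 10 genes by symbol, all but H2-L and H2-Q5. The 250 bases before the start site are shown for 5 of them: both classical chains, 1 Q chain, H2-T23, which had no NF-kappaB match, and B2m, where the order of the elements differs. Capitals mark matches to the NF-kappaB motif and to the ISRE; each sequence reads 5′ to 3′ on the gene's strand. Windows are chr17:34000334-34000583 (H2-K1), chr17:35262844-35263093 (H2-D1), chr17:35438905-35439154 (H2-Q7), chr17:36032702-36032951 (H2-T23) and chr2:122147437-122147686 (B2m).
H2-K1: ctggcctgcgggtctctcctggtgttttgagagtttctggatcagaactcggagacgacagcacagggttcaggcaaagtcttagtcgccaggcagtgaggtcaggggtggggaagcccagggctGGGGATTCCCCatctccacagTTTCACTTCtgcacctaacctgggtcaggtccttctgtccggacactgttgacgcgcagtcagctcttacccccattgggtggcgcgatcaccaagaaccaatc
H2-D1: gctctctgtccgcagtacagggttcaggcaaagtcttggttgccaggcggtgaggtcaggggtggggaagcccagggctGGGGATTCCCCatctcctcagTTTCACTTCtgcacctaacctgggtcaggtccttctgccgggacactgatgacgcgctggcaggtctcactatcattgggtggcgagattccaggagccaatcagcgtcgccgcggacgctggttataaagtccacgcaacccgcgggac
H2-Q7: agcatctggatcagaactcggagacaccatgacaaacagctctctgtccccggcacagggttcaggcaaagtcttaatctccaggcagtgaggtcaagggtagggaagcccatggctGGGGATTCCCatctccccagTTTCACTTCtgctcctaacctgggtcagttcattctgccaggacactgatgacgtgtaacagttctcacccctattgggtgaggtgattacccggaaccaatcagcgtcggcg
H2-T23: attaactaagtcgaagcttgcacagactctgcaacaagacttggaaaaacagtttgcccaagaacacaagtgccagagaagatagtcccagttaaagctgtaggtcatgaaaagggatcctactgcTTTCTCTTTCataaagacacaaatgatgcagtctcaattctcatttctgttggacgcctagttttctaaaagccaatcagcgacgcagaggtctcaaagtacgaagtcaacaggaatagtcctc
B2m: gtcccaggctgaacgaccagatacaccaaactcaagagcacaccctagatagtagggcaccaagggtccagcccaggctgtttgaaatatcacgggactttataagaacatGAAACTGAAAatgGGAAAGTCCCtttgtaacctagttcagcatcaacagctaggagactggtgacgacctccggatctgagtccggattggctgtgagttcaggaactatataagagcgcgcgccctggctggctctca

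In H2-K1, H2-D1, H2-Q4, H2-Q6 and H2-Q7 the NF-kappaB match comes first and TTTCACTTC follows after 10 bases. In H2-K1 it begins 125 bases before the start site and in H2-D1 171 bases before it. This second element is a short ISRE form, GAANNGAAA read on the other strand, and it was searched for only after the sequences had been seen. The longer core GAAANNGAAA was present in H2-T22, H2-T23 and B2m, and in B2m it stands upstream of the NF-kappaB match with 3 bases between them. Searched on both strands of the same window, the NF-kappaB motif was in 7 of the 8 promoters (all but H2-T23), the long ISRE core in 3 and the short form in 5. Among all 32851 RefSeq promoters these motifs were in 7.25%, 2.98% and 6.31%. The CRE-like core TGACG was in 6 of 8 against 17.8%, and the Y box core ATTGG in 8 of 8 against 33.8%. The long and short ISRE letters did not overlap in any of these genes; the heavy chains are paralogs, so their matches are not independent. A match describes letters only, and the expression data do not show which of them is used.

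Values are raw fragment counts per gene, as the authors deposited them, scaled here to CPM, the count of a gene relative to the size of its library, with composition factors (TMM) shared by all 12 libraries. Total counts ran from 20751583 to 30460237 per library. Replicates differed by more than counting error, with a chi-squared per degree of freedom of 8.07 to 118 over the 12 pairs of replicate libraries. Mars2 itself stood at 2.71 ± 0.611 CPM (SD, n = 3) in liver WT and 2.88 ± 0.659 in liver R135W, and at 11.9 ± 0.972 and 9.67 ± 0.895 in muscle. Counts cannot show a missense base, so they do not check the genotype labels. The tissue labels were checked on 10 hepatocyte and 10 muscle fibre markers: the hepatocyte markers summed to at least 82370 CPM in every liver library and to at most 60.2 CPM in muscle, and the fibre markers to at least 141700 CPM in muscle and at most 9.60 CPM in liver.

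In wild-type animals all 10 genes were higher in liver than in gastrocnemius. The difference ran from 2.28 on the log2 scale (SE 0.16) for H2-Q4 to 5.15 (SE 0.22) for B2m, and the median over the genes was 3.16. H2-K1 differed by 4.71 (SE 0.18), H2-T23 by 4.66 (SE 0.20) and H2-Q7 by 4.40 (SE 0.28), while H2-D1 differed by 2.93 (SE 0.14). By edgeR's quasi-likelihood test in the fit of all 12 libraries, adjusted p-values ran from 2.13e-11 to 1.06e-06. Of all 15414 genes tested in that fit, 40.9% were called higher in liver.

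Compared per kilobase of exon, B2m was the most abundant of these transcripts in liver. In liver WT it stood at 1907 ± 332.8 CPM per kb (SD, n = 3), followed by H2-K1 at 1068 ± 69.5 and H2-D1 at 390.5 ± 35.2. H2-T23 stood at 208 ± 45.6, H2-T22 at 70.3 ± 12.1 and H2-Q7 at 52.9 ± 7.21 CPM per kb. Below them were H2-Q4 at 38.0 ± 4.72, H2-Q6 at 21.4 ± 4.32 and H2-Q5 at 5.79 ± 1.10. In this order only the neighbours H2-T22 and H2-Q7 overlapped between libraries. H2-L, on its shorter exons, came to 512 ± 67.0 CPM per kb.

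In liver R135W the order of levels per kb was the same except that H2-Q7, at 137 ± 9.29 CPM per kb, and H2-T22, at 131 ± 17.1, changed places; their libraries again overlapped. By level per kb, B2m and H2-K1 stood at a percentile of 99.6 or more in both liver groups, among the 15414 genes that passed the filter over all 12 libraries. H2-Q5 was the lowest of these genes in each of the 4 groups.

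Muscle had another order. In gastrocnemius WT, B2m (53.7 ± 4.56 CPM per kb) and H2-D1 (51.2 ± 5.23) overlapped, and H2-K1 was lower at 40.7 ± 5.54. H2-T23 (8.18 ± 0.972), H2-Q4 (7.82 ± 1.23) and H2-T22 (6.78 ± 0.503) overlapped as neighbours, H2-Q6 (3.25 ± 1.32) overlapped H2-Q7 (2.50 ± 0.917), and H2-Q5 was lowest at 0.735 ± 0.336. In gastrocnemius R135W, B2m, H2-D1 and H2-K1 overlapped as neighbours at 87.9 ± 17.7, 75.1 ± 9.47 and 68.1 ± 12.2 CPM per kb. H2-Q4, H2-T23, H2-Q6, H2-T22 and H2-Q7 overlapped in the same way, from 15.2 ± 3.09 down to 8.46 ± 2.98, and H2-Q5 stood at 2.49 ± 0.481.

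**Figure D1:**
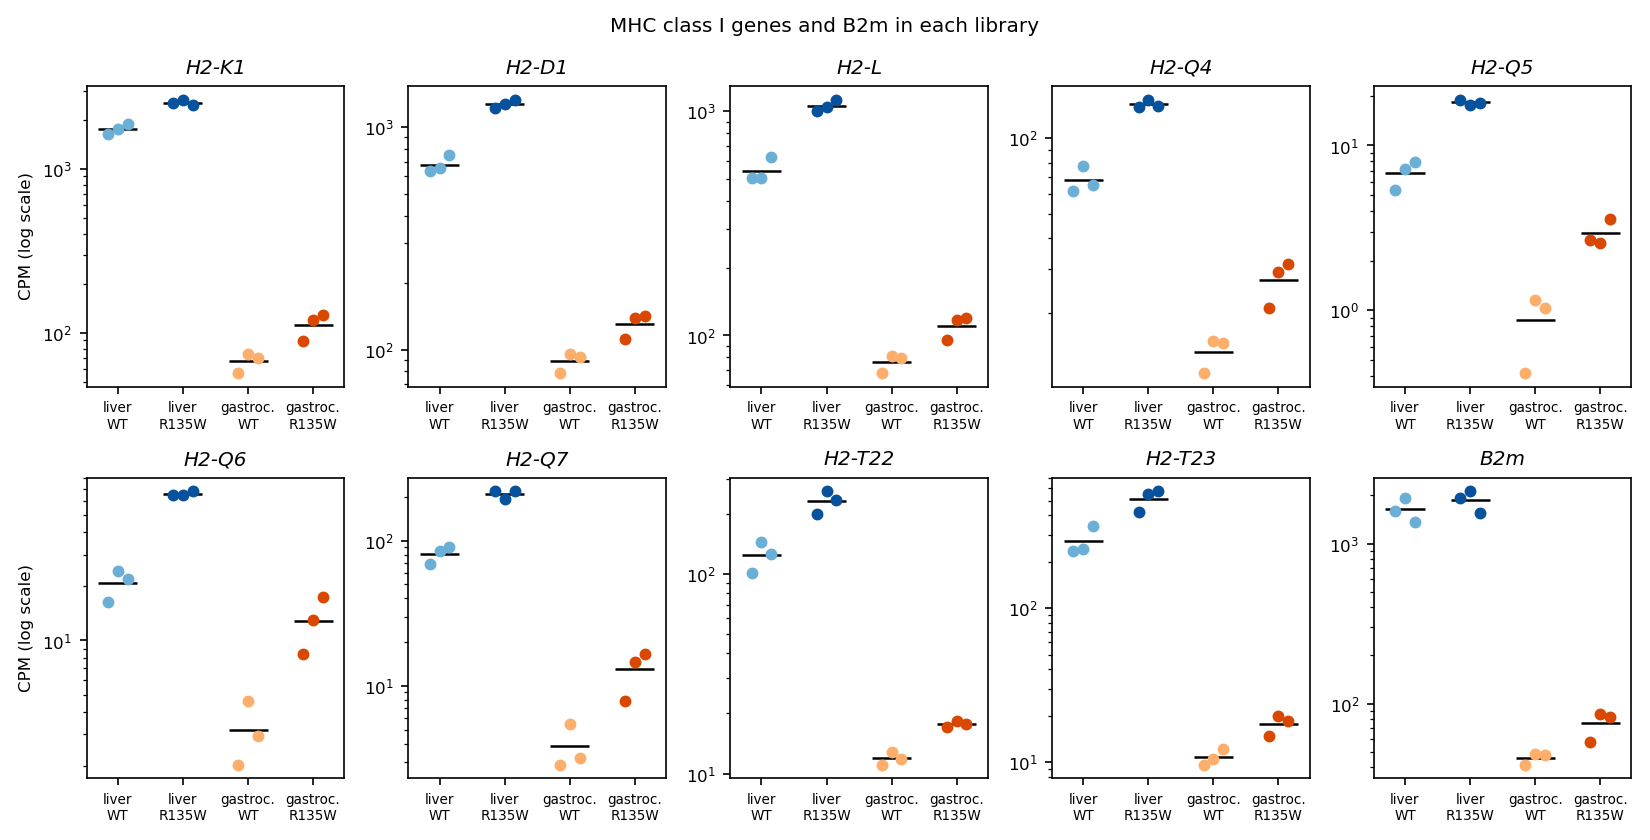
Level of each gene in each library, in CPM on a log axis that differs between panels; points are libraries of 1 animal each (from left to right animals 6, 8 and 9 for WT and 5, 7 and 12 for R135W) and bars are group means. Liver lies above muscle in every panel, and R135W libraries lie above WT libraries within a tissue except for B2m in liver, where they overlap.

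Within liver, the question was whether class I transcripts differ between R135W and WT animals. Of the 10 genes, 8 rose in R135W, and B2m and H2-K1 did not pass the test. Among the 10, the 4 Q genes changed most, H2-Q6 by 1.64 on the log2 scale (SE 0.15), and the classical chain H2-D1 changed by 0.90 (SE 0.14). With H2-L left out as a second reading of H2-D1, an alternative added after the data were seen, 7 of 9 rose. Of all 13935 genes tested in liver, 2.76% were called higher in R135W. The median log2 fold change was 0.93 over the 10 genes and about 0 over all genes (-0.00507).

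H2-K1, which encodes the K heavy chain, stood at 1641, 1763 and 1870 CPM in the WT livers and at 2527, 2645 and 2444 CPM in the R135W livers of animals 5, 7 and 12. All R135W libraries lay above all WT libraries. Its log2 fold change was 0.52 (SE 0.14), with an unadjusted p of 0.00528 and an adjusted p of 0.0969 by edgeR's test, so it was not called. DESeq2 called it (0.52 on the log2 scale, adjusted p = 0.00202), limma-voom did not (adjusted p = 0.0732), and over all alternatives its adjusted p ran from 0.00202 to 0.267.

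H2-D1, which encodes the D heavy chain, stood at 634.5, 651.5 and 748 CPM in the WT livers and at 1214, 1271 and 1327 CPM in the R135W livers. The groups were far apart, and H2-D1 rose by 0.90 (SE 0.14, edgeR adjusted p = 0.0154). H2-L, counted on the same exons, rose by 0.96 (SE 0.15).

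H2-Q4 encodes a Q-region chain and stood at 61.7, 77.7 and 65.0 CPM in WT and 133, 143 and 134.5 CPM in R135W livers, a rise of 1.001 (SE 0.12). H2-Q6 stood at 16.3, 24.5 and 22.2 CPM in WT and at 64.3, 64.5 and 67.9 CPM in R135W livers. The 3 R135W values of H2-Q6 were nearly equal, and its rise of 1.64 (SE 0.15, edgeR adjusted p = 0.0032) was the largest of the 10 in liver. H2-Q7, a Qa-2 gene, stood at 68.8, 84.7 and 90.1 CPM in WT and at 219, 194 and 219 CPM in R135W livers, a rise of 1.37 (SE 0.13). H2-Q5, which ran from 5.41 to 7.95 CPM in the WT livers and from 17.6 to 18.97 CPM in those with R135W, rose by 1.41 (SE 0.16). None of these Q genes overlapped between the genotypes.

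H2-T23, the Qa-1 gene, stood at 236.5, 241 and 343 CPM in WT and at 421, 550 and 575.5 CPM in R135W livers. The highest WT library, animal 9, stayed below the lowest R135W library, animal 5, and H2-T23 rose by 0.91 (SE 0.19, edgeR adjusted p = 0.0411). H2-T22, whose product is a ligand of a subset of gamma delta T cells, ran from 102 to 144 CPM in the WT livers and from 200 to 259.5 CPM in those with R135W, a rise of 0.90 (SE 0.16, edgeR adjusted p = 0.0241). H2-T9, with nearly the same exons, gives the same values.

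B2m did not separate the genotypes in liver. It stood at 1596, 1940 and 1373 CPM in WT and at 1932, 2128 and 1564 CPM in R135W livers, so that the lowest R135W library lay below 2 of the WT libraries. Its log2 fold change was 0.19 (SE 0.19, edgeR adjusted p = 0.649), and no alternative called it. The other 9 genes had every R135W library above every WT library, where 14.1% of all genes tested in liver did.

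The liver calls rest in part on single libraries. When each liver library was left out in turn, between 4 and 8 genes were called. H2-Q4, H2-Q5, H2-Q6 and H2-Q7 were called each time, and their adjusted p stayed at or below 0.0474. Without WT animal 8 or R135W animal 7 only those 4 were called, and without WT animal 9 there were 5; all 10 log2 fold changes stayed above 0 in each of these fits.

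**Figure D2:**
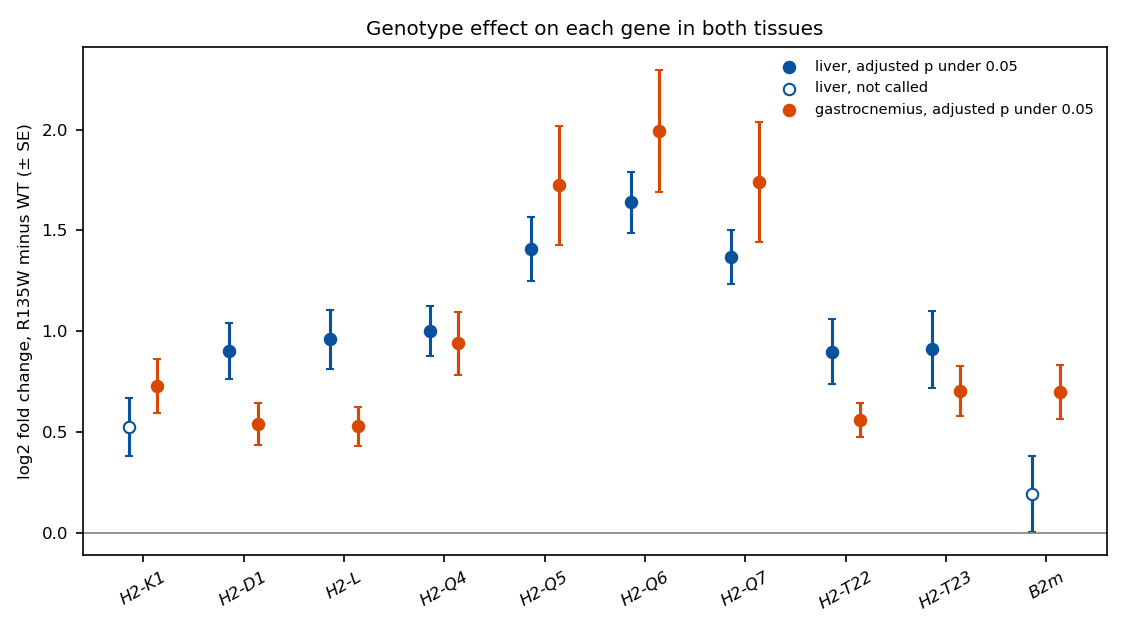
Log2 fold change of R135W minus WT for each gene, with its SE, in liver (blue) and gastrocnemius (orange); filled points have an adjusted p under 0.05 by edgeR's test and open points do not. H2-Q5, H2-Q6 and H2-Q7 lie highest in both tissues, and the open points are H2-K1 and B2m in liver.

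In gastrocnemius all 10 genes rose in R135W. The largest rise was again that of H2-Q6, at 1.99 on the log2 scale (SE 0.30), and the smallest were those of H2-L, at 0.53 (SE 0.098), and H2-D1, at 0.54 (SE 0.10). Adjusted p-values by edgeR's test ran from 0.0289 to 0.0489, close below the threshold of 0.05. Of all 13826 genes tested in muscle, 0.542% were called higher in R135W. The median log2 fold change was 0.71 over the 10 genes and about 0 over all genes (-0.0001958).

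H2-K1 stood at 56.8, 74.2 and 70.1 CPM in the WT muscles and at 89.4, 119 and 128 CPM in the R135W muscles, a rise of 0.73 (SE 0.13, edgeR adjusted p = 0.0438). H2-D1 stood at 78.5, 95.5 and 92.5 CPM in WT and at 111, 138 and 141 CPM in R135W muscles. In both classical chains the lowest library of each genotype was that of the same animal, 6 among WT and 5 among R135W.

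B2m stood at 41.6, 48.6 and 48.0 CPM in WT and at 57.9, 85.8 and 82.5 CPM in R135W muscles. The groups did not overlap, unlike in liver, and B2m rose by 0.70 (SE 0.13, edgeR adjusted p = 0.0489).

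H2-Q4 stood at 11.5, 15.4 and 15.2 CPM in WT and at 20.9, 29.2 and 31.4 CPM in R135W muscles, a rise of 0.94 (SE 0.16). H2-Q6 stood at 2.03, 4.58 and 2.95 CPM in WT and at 8.36, 13.01 and 17.4 CPM in R135W muscles. H2-Q7 stood at 2.86, 5.45 and 3.18 CPM in WT and at 7.81, 14.7 and 16.5 CPM in R135W muscles, a rise of 1.74 (SE 0.30). In both genes R135W animal 5 was lowest and animal 12 highest of its group, and the groups stayed apart. H2-Q5 was near the detection limit in WT muscle, with 10 to 32 counts per library (0.415 to 1.15 CPM) against 63 to 94 counts (2.57 to 3.60 CPM) in R135W, a rise of 1.72 (SE 0.30).

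H2-T23 stood at 9.63, 10.5 and 12.2 CPM in WT and at 14.8, 19.9 and 18.4 CPM in R135W muscles, a rise of 0.70 (SE 0.13). H2-T22 ranged from 11.1 to 12.8 CPM in the WT muscles and from 17.2 to 18.3 CPM in those with R135W, a rise of 0.56 (SE 0.084) with the smallest spread of the 10 genes in both groups. All 10 genes had every R135W library above every WT library in muscle, where 9.1% of all genes tested there did.

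All of these muscle calls depend on single libraries. Without WT animal 6, 8 or 9, or without R135W animal 7 or 12, none of the 10 genes was called by edgeR's test, and without R135W animal 5 there were 9, all but H2-Q5; adjusted p-values over these fits ran from 0.00764 to 0.198. In each of these 6 fits, with 2 libraries in 1 group, all 10 genes had an unadjusted p under 0.05 and a log2 fold change of 0.447 or more. With all libraries, DESeq2 called 10 genes, limma-voom 5 and the fit of both tissues together 4. A stricter filter, at least 1 CPM in 3 libraries, called 8 and ended the calls of H2-D1 (edgeR adjusted p = 0.0515) and B2m (0.0524).

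The libraries had a largely common order across these genes in muscle, and less so in liver. In muscle, WT animal 6 was the lowest of its group for 10 of 10 genes and R135W animal 5 for 9 of 10, while WT animal 8 was highest for 9 and R135W animal 12 for 7. In liver, WT animal 6 was lowest for 8 of 10 and R135W animal 5 for 6 of 10. The highest liver library was WT animal 9 for 6 genes and WT animal 8 for 4. In R135W livers it was animal 12 for 5, animal 7 for 4 and animal 5 for 1. These orders were counted for the 10 genes only, of which H2-L repeats H2-D1, without a share over all genes. The median coefficient of variation over the 10 genes was 15.4% in liver WT and 5.1% in liver R135W, and 12.7% and 18.6% in the muscle groups. Animals 5, 6 and 8 were the same age, 9.0 weeks.

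Whether the genotype effect differed between the tissues was tested as an interaction. None of the 10 genes was called by edgeR's test (adjusted p 0.471 to 0.987; 0.13% of all 15414 genes were called), 1 had an unadjusted p under 0.05, and DESeq2 and limma-voom also called none, with 3 and 2 at an unadjusted p under 0.05. B2m differed by -0.52 (SE 0.26, unadjusted p = 0.0663), less in liver than in muscle, and H2-D1 by 0.35 (SE 0.18). H2-L was the gene under 0.05, at 0.42 (SE 0.19). H2-K1 differed by -0.21 (SE 0.22), H2-Q7 by -0.38 (SE 0.35) and H2-Q4 by 0.05 (SE 0.21). A test that misses its threshold does not show that the effects were equal, and the B2m call in muscle but not in liver is not shown to be a difference between tissues.

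Relative amounts of the heavy chains were read as shares of their summed CPM per kb, over 8 genes without H2-L. Other class I genes, H2-Q10 among them, are not in this sum. H2-Q10 stood at 2298 ± 198.6 CPM in liver WT, above H2-K1 at 1758 ± 114.4. The log2 fold change of H2-Q10 in liver was 0.11 (SE 0.15). Shares and ratios to the sum therefore hold for these 8 genes only. The sum was 1855 ± 161.5 in liver WT and 3093 ± 115.5 in liver R135W (SD, n = 3), 1.67 times as high. In muscle it was 121 ± 15.2 in WT and 206 ± 34.4 in R135W, 1.70 times as high, and neither pair of groups overlapped. H2-K1 made up 57.7 ± 1.32% of the sum in liver WT and 49.9 ± 2.13% in liver R135W, against 33.6 ± 0.373% and 33.0 ± 0.474% in muscle. H2-D1 made up 21.1% and 23.7% in liver, and 42.3% and 36.6% in muscle. Both classical chains together held 78.7 ± 1.34% in liver WT and 73.6 ± 1.66% in liver R135W, and 75.9 ± 0.738% and 69.6 ± 1.22% in muscle. H2-Q6 went from 1.15% to 2.16% in liver and from 2.63% to 6.27% in muscle, and H2-Q7 from 2.84% to 4.45% and from 2.03% to 4.01%.

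Ratios within a library do not depend on its scaling; they were chosen after values were seen and are given without a test. The ratio of H2-K1 to H2-D1, per kb, was 2.64 to 2.85 in liver WT and 1.94 to 2.20 in liver R135W. In muscle it was 0.763 to 0.82 in WT and 0.846 to 0.955 in R135W, so that H2-K1 exceeded H2-D1 in every liver library and fell below it in every muscle library. The ratio moved down with R135W in liver and up in muscle, without overlap in either tissue. The ratio of H2-Q7 to H2-Q6 was 2.21 to 2.70 in liver WT and 1.92 to 2.17 in liver R135W, and 0.688 to 0.899 and 0.597 to 0.72 in muscle. B2m relative to the heavy chain sum was 0.791 to 1.23 in liver WT and 0.584 to 0.777 in liver R135W, and in muscle 0.425 to 0.466 and 0.404 to 0.456. In the R135W livers the 8 summed heavy chains thus gained on B2m, narrowly without overlap, while in muscle the ranges overlapped. A sum that includes H2-Q10 was not tested.

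**Figure D3:**
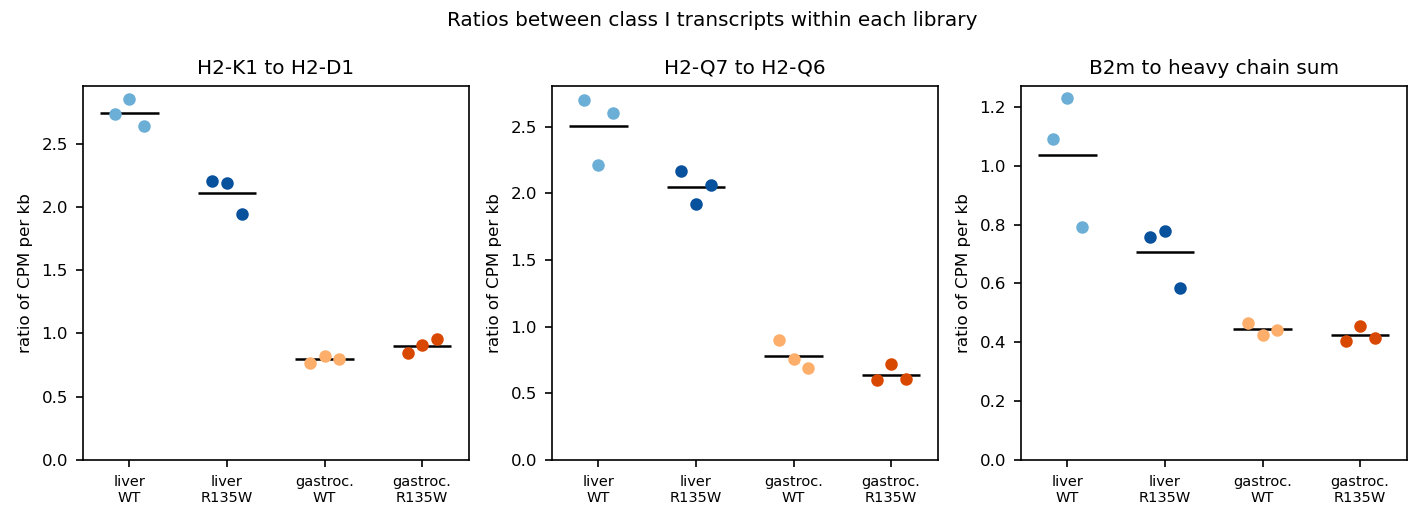
Ratios of levels per kb within each library: H2-K1 to H2-D1, H2-Q7 to H2-Q6, and B2m to the sum of 8 heavy chains; points are libraries, bars are group means, and axes start at 0. The first pair of ratios lies at 1.92 or more in liver and at 0.955 or less in muscle, and the B2m ratio is lowest in muscle.

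Among other class I and class I-like genes, 4 of 16 tested rose in liver (median log2 fold change 0.29), among them H2-T24 by 1.14 (SE 0.18), H2-M3, which presents formylated peptides, by 0.94 (SE 0.17), H2-T10 by 0.88 (SE 0.16), and H2-T9, which repeats H2-T22. The Q-region genes H2-Q1 and H2-Q2 had log2 fold changes of 0.40 (SE 0.22) and 0.88 (SE 0.24) in liver. Neither was called (edgeR adjusted p = 0.394 and 0.0995). H2-Q10, the secreted liver chain, stood at 2298 ± 198.6 CPM in liver WT and 2491 ± 122 in liver R135W (log2 fold change 0.11, SE 0.15), not called. In muscle 2 of 12 rose, H2-T24 by 0.84 (SE 0.15) and H2-T9, with a median of 0.03.

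Of the genes that supply and load peptide, 4 of 13 rose in liver (median 0.34): the transporter genes Tap1 by 1.17 (SE 0.20) and Tap2 by 0.64 (SE 0.13), the immunoproteasome subunit Psmb8 by 1.01 (SE 0.15) and tapasin, Tapbp, by 0.66 (SE 0.14). In muscle 1 of 13 rose, the immunoproteasome subunit Psmb9, by 0.89 (SE 0.17), with a median of 0.13. Psmb8 in muscle had a log2 fold change of 0.82 (SE 0.23, edgeR adjusted p = 0.184) and Tap1 0.66 (SE 0.26), neither called.

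Among 15 transcription factors of class I genes, 1 rose in liver, Irf9, a subunit of a complex that binds the ISRE, by 0.55 (SE 0.11). Irf2, which competes for that site, fell by 0.67 (SE 0.13). In muscle 1 of 15 rose, Stat2, by 0.70 (SE 0.13). Nlrc5 stood at 41.9 ± 4.34 CPM in liver WT and 51.9 ± 4.66 in liver R135W, and at 2.51 ± 0.347 and 4.72 ± 1.82 in muscle, not called in either tissue (edgeR adjusted p = 0.236 and 0.215). Of 7 tested genes for receptors of class I molecules or related receptors, 3 rose in liver. These were Pirb by 0.78 (SE 0.14), Klra2 by 0.79 (SE 0.17) and the related receptor gene Lilrb4 by 1.01 (SE 0.16). Binding of class I molecules was not tested for any of them. Of 2 tested in muscle none was called by edgeR, DESeq2 or limma-voom, and 1, Lilrb4, had an unadjusted p under 0.05 by edgeR.

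MHC class II genes, which present peptides of ingested proteins, were not called by edgeR, DESeq2 or limma-voom in either tissue. In liver 0 of 10 passed, 2 had an unadjusted p under 0.05 by edgeR (H2-DMb2 with a log2 fold change of 0.88, SE 0.30, and H2-DMa with 0.51, SE 0.18), and the median was 0.34. In muscle 0 of 7 passed, none had an unadjusted p under 0.05, and the median was 0.12. Of the core genes induced by type I interferon, 22 of 22 rose in liver (median 2.11) and 10 of 20 in muscle (median 1.31), among them Irf7 by 2.51 (SE 0.19) and 2.56 (SE 0.26).

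The genes whose pattern over the 12 libraries was most like that of the 10 genes were Irf7 (Pearson r = 0.965), Bst2 (r = 0.962), Ifitm3 (r = 0.962), Psmb8 (r = 0.948) and Ifit3 (r = 0.947), out of 11100 candidates. The measure is the correlation of tissue-centred log2 CPM with the mean of the 10 genes, and the points share the genotype contrast, so it is a description. The 10 genes' own correlations with that mean ran from 0.777 for B2m to 0.993 for H2-Q6.

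**Figure D4:**
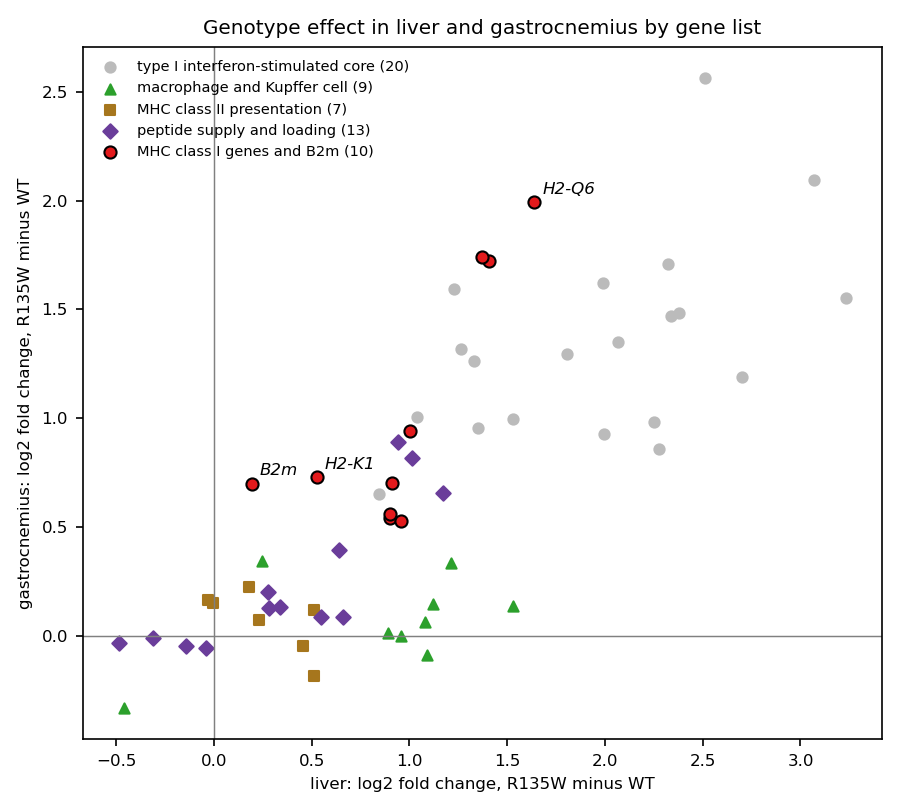
Log2 fold change of R135W minus WT in liver (horizontal) and gastrocnemius (vertical) for genes tested in both tissues, by gene list; the number of genes is in the legend. The 9 heavy chain genes and B2m lie above 0 on both axes, while macrophage markers spread along the liver axis, with a median of 0.06 over the 9 tested in muscle.

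Markers of some other cell types also moved in liver, those of macrophages and Kupffer cells most clearly. Of 16 macrophage and Kupffer cell markers 13 rose there (median 1.08), and their summed level was 410 to 652 CPM in liver WT and 1087 to 1140 CPM in liver R135W. Of the NK cell markers 2 of 5 rose, and of the dendritic cell markers 1 of 8. None of the 8 T cell, 5 B cell or 4 neutrophil markers tested passed edgeR's test, with 5, 3 and 3 at an unadjusted p under 0.05; DESeq2 called 0, 1 and 2 of them and limma-voom none. The summed levels of these 3 lists, of NK cells and of dendritic cells were higher in every R135W liver than in every WT liver. For T cells they were 6.47 to 7.87 against 10.9 to 11.1 CPM. The 5 T cell markers with an unadjusted p under 0.05 by edgeR were Cd2, Cd4, Cd8a, Lck and Thy1. The CD3 chain genes Cd3e, Cd3d and Cd3g had log2 fold changes of 0.02 (SE 0.29), 0.09 (SE 0.46) and 0.39 (SE 0.32). The hepatocyte markers were lower in sum in every R135W liver, at 82370 to 91560 against 104300 to 105700 CPM (median log2 fold change -0.22); of these 10, edgeR and limma-voom called none, DESeq2 called 2 lower, and 2 had an unadjusted p under 0.05 by edgeR. In bulk tissue, more cells of a type and more RNA per cell cannot be told apart, and the part of these cells in the liver result was not tested.

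In muscle 0 of 9 tested macrophage markers passed edgeR's test, none had an unadjusted p under 0.05, and DESeq2 and limma-voom called none. Their summed level overlapped, at 68.0 to 85.9 CPM in the WT and 71.5 to 93.0 CPM in the R135W muscles. In every muscle library the Kupffer cell markers Clec4f and Marco were at or under 0.0767 CPM, and Cd5l at or under 0.1245 CPM. Timd4 was higher, at 0.291 to 0.649 CPM in the WT and 0.191 to 0.549 CPM in the R135W muscles. Of 10 endothelial markers in muscle 1 rose, the receptor gene Kdr, by 0.77 (SE 0.080), and 7 had an unadjusted p under 0.05. Stab2 and Lyve1 had log2 fold changes of -0.36 and -0.35, not called, the median was 0.28, and the summed level was 314 to 345 CPM in the WT and 388 to 419 CPM in the R135W muscles. The T cell markers summed to 4.98 to 6.52 CPM in the WT and 6.80 to 8.32 CPM in the R135W muscles, of which Thy1 alone made up 4.97 and 6.67 CPM on average. Cd3e, specific to T cells, stood at 0.461 and 0.377 CPM, and of the 2 T cell markers tested (Cd3e and Thy1) edgeR, DESeq2 and limma-voom called none, with Thy1 at an unadjusted p of 0.0158 by edgeR. The NK cell markers, none of them above the filter, summed to 0.192 to 0.325 against 0.454 to 0.507 CPM. Their part in the muscle result was not tested. In liver 0 of 10 endothelial markers were called by edgeR, DESeq2 or limma-voom, 2 had an unadjusted p under 0.05, and their sums overlapped at 192 to 304 and 244 to 312 CPM.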

How the data were processed

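Per the file headers, featureCounts 1.5.2 was run by the authors on exons of a UCSC mm10 annotation, grouped by gene symbol, for read pairs, unstranded and with primary alignments only; a pair over several genes counted for each. The submitters' processing notes name STAR 2.4.0. The deposited values are raw counts. R135W was tested against WT within a tissue (6 libraries) by edgeR 4.0.16 in R 4.3.3, with TMM factors, filterByExpr and the quasi-likelihood F test. P-values were adjusted by Benjamini-Hochberg over all genes tested, and an adjusted p under 0.05 was called. Standard errors were obtained from the fold change and its F statistic. The tissue contrast and the interaction came from a fit of all 12 libraries in 4 groups. Alternatives used DESeq2 1.42.0, limma-voom (limma 3.58.1), other scalings and filters, age, an animal block and leaving out libraries. The fits were checked on simulated data.

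The genes and lists described were chosen with earlier results of these data known. Named from each partner list were up to 4 called genes with the smallest liver p, or up to 2 with the smallest p where none was called. Psmb8 and Tap1 in muscle, Nlrc5, H2-Q10, Kdr, Clec4f, Marco, Cd5l, Timd4, Stab2, Lyve1, Thy1 and Cd3e were named after their values were seen. So were H2-Q1, H2-Q2, Cd2, Cd3d, Cd3g, Cd4, Cd8a and Lck in liver, and the NK cell and dendritic cell markers named there. The animals' numbers in the sample titles pair liver with muscle: genotype and age are the same for both libraries of each number. Deviations from the group mean correlated between them at 0.00337 to 0.069. Fold changes come from the tissue fits and levels from the 12-library scaling. Libraries of a group are separate animals per the labels' numbers, and precision is limited by n = 3. From the list of transcription factors, 1 gene is not reported here.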

Additional observations from a re-analysis of the deposited data

How the results depend on the processing

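In liver, 8 of 10 genes were called; the count was 9 with total library size only, with DESeq2 and at an adjusted p under 0.1, each adding H2-K1, and 4 to 8 when single libraries were left out. In gastrocnemius, 10 of 10 were called; limma-voom called 5, the fit of all 12 libraries 4, a filter of at least 1 CPM in 3 libraries 8 (without H2-D1 and B2m), and leaving out single libraries gave 0 to 9. A fit without a library has fewer samples; otherwise the cause was not tested. No log2 fold change in liver, in gastrocnemius or between the WT tissues changed sign under any alternative run. For the difference between tissues no gene was called under any of them, and H2-Q4, at 0.05, ran from -0.0865 to 0.182 when animals were left out, below 0 without R135W animal 5 and without WT animal 9 (-0.0416). With the animal as a replicate block, 0 of 10 were called for the difference and 10 of 10 between WT tissues, as without it. Depth limits H2-Q5 in WT muscle most, with 10 to 32 counts per library.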
